A study of Mus musculus with 10 samples.

Results

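The nuclear and mitochondrial genes of the respiratory chain were compared between dorsal root ganglia (DRG) of mice given oxaliplatin and of mice given vehicle. They were chosen by name and biotype: protein-coding rows of the deposited count table whose symbol begins with Nduf plus a, b, c, s or v, with Uqcr, with Cox followed by a number from 4 to 8, or with Atp5, the rows Sdha to Sdhd, Cyc1 and Cycs, and the mitochondrial Nd, Co, Atp and Cytb genes, without Cox4i2 and Ndufa4l2. This gave 106 genes of 40481 Ensembl IDs in the table. Of these, 84 are nuclear genes for subunits of complexes I to V or for cytochrome c, 13 are the protein genes of the mitochondrial genome, and 9 are not subunits but are caught by their names (the complex I assembly factors Ndufaf1 to Ndufaf8 and the coupling factor Atp5s). Of the 106, 105 had enough counts for the test. The exception was Cox8c, a testis form of a complex IV subunit, with 1 count each in oxaliplatin libraries 2 and 5 and 0 counts in the other 8.

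The series holds 10 libraries of total RNA from DRG, where the cell bodies of sensory neurons lie, in C57BL/6 mice. In 5 the mice had received oxaliplatin, a platinum drug that damages sensory nerves, at 10 mg/kg and over 8 weeks, and in the other 5 they had received vehicle. No genotype other than the strain is labelled, and neither the animals' age nor the dosing schedule is stated in the labels. The labels number the libraries without saying that each came from its own animal. The p-values therefore measure only how these samples varied, which may be technical. Library totals ran from 52963470 to 60984426 counts, and the mitochondrial genome took 1.34 to 1.76% of them. The neuron marker list was present with all 17 of its genes tested, and its summed level was 27123 to 31180 CPM (counts scaled to a common library size corrected for composition) after oxaliplatin and 31157 to 35924 CPM after vehicle.

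The respiratory chain passes electrons from NADH through complex I, or from succinate through complex II, to complex III, then by cytochrome c to complex IV and to oxygen, while protons are pumped across the inner mitochondrial membrane; complex V uses the proton gradient to make ATP. Complexes I, III, IV and V are built from subunits of 2 genomes, since a few core proteins are encoded in mitochondrial DNA and the rest in the nucleus. Sensory neurons have long axons with a high demand for ATP, and platinum drugs can bind nuclear and mitochondrial DNA.

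Many nuclear respiratory chain promoters are known to carry sites for nuclear respiratory factor 1 (NRF-1), ETS factors such as NRF-2, or YY1. Promoter windows from RefSeq (mouse build GRCm38.p6, 250 bases before to 50 after the start of each gene) matched 77 of the 93 nuclear members. A gene counted as a match if any of its windows held the motif, on either strand. The NRF-1 consensus (GCGCA, any base, then GCGC) was found in 19 of the 77 (24.7%), against 5.19% of all 27025 genes with windows. The letters CCGGAAG (ETS) were found in 18 (23.4%, against 9.93%) and AAGATGGC (YY1) in 11 (14.3%, against 3.19%). The letters TATAAA, known from the core promoters of many regulated genes, were found in 7 (9.09%, against 15.7%). These matches describe the sequences only. Shown are the windows of Cox6a1, the nuclear member with the highest level per kilobase; of Uqcrc1, the nuclear complex III subunit with the most counts, not scaled by length; of Atp5g1, the member that passed the test below; and of Cox8b, a muscle form. Each is written 5′ to 3′ in the direction of transcription, and capitals mark the matches: 2 NRF-1 and 1 ETS in Cox6a1 (chr5:115348909-115349208, minus strand), 2 NRF-1 in Uqcrc1 (chr9:108936398-108936697, plus strand), none in Atp5g1 (chr11:96075582-96075881, minus strand) and 1 TATAAA in Cox8b (chr7:140900397-140900696, minus strand).
Cox6a1: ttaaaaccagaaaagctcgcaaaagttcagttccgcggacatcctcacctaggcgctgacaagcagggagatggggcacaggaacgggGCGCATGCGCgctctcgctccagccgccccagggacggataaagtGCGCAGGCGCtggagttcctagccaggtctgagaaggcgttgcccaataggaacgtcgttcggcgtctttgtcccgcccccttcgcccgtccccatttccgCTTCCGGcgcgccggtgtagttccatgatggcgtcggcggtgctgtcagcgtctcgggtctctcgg
Uqcrc1: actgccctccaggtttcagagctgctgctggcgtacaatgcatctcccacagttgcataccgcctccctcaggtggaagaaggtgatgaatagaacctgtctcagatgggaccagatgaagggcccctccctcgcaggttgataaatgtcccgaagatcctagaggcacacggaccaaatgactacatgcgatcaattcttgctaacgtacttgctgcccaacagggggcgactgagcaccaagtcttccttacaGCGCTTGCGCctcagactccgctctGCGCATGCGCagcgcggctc
Atp5g1: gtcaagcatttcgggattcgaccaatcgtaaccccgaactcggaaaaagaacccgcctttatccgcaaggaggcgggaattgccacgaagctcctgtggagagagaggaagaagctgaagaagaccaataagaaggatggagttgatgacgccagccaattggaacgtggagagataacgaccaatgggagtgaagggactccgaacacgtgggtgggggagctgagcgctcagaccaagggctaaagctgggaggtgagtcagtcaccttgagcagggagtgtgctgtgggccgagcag
Cox8b: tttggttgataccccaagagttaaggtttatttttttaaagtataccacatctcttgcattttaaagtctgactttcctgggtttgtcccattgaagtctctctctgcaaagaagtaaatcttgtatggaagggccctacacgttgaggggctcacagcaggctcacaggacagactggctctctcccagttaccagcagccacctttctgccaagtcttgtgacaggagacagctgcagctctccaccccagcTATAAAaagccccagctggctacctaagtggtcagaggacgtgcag

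Most respiratory chain genes lay slightly lower after oxaliplatin, and only 1 of them passed the test. Of 105 tested members, 0 rose and 1, Atp5g1, fell (quasi-likelihood test of edgeR, p adjusted by Benjamini-Hochberg over all 18401 tested genes and below 0.05). Over all tested genes 2.04% passed in either direction, 1.27% higher and 0.772% lower, so the share of members called was near that of genes in general. DESeq2 called 1 member higher and 2 lower, beside 516 higher and 406 lower among all 18401 tested genes. Limma voom with quality weights called 1 member higher and 4 lower, beside 439 higher and 365 lower among all tested genes. The log2 fold change was below 0 in 92 of the 105, with a median of -0.10, while it was below 0 in 49.0% of all tested genes, with a median of 0.01. At an unadjusted p below 0.05, 23 members were lower and 1 was higher, beside 7.80% lower and 8.51% higher among all tested genes. Without a factor for library composition, 69 of 83 nuclear subunits lay below 0, beside 41.6% of all tested genes. In that fit 1 member (Cox6b2) was called higher and 0 lower, and the share of all genes called is not given. The members share their libraries, so these counts are not independent of each other. In these bulk samples fewer cells of a type and less RNA per cell cannot be told apart.

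**Figure D1:**
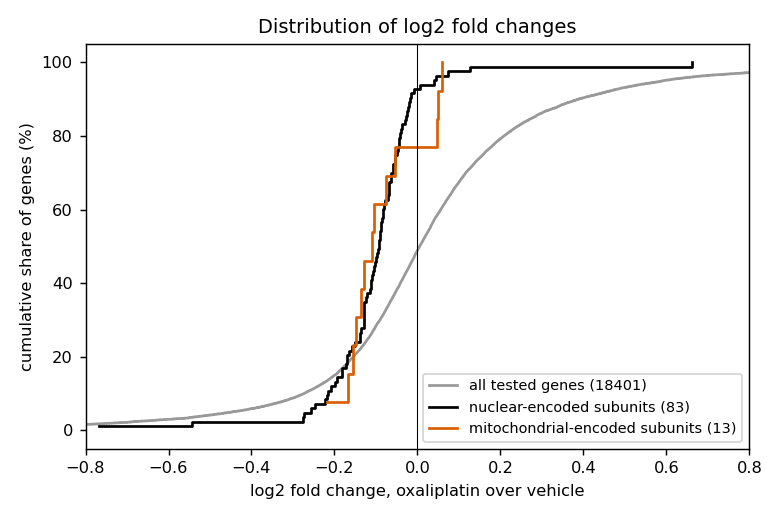
Cumulative share of genes (%, vertical axis) against the log2 fold change of oxaliplatin over vehicle (horizontal axis, drawn from -0.8 to 0.8) for 83 nuclear-encoded subunits, 13 mitochondrial-encoded subunits and 18401 tested genes. Both respiratory chain curves cross 50% left of 0, at medians of -0.09 and -0.11, and the curve of all genes crosses it at 0.01.

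Nuclear and mitochondrial subunits differed by a similar small amount. The 83 tested nuclear-encoded subunits had a median log2 fold change of -0.09, with 77 below 0, and the 13 mitochondrial-encoded subunits had a median of -0.11, with 10 below 0. Leaving aside the tissue isoforms of complex IV, the 78 nuclear subunits ranged from -0.28 to 0.13. In 77 of these 78 the 95% confidence interval lay within a 1.5-fold change in either direction, the exception being Uqcrfs1. The same held for 12 of the 13 mitochondrial genes, all but mt-Atp8. Changes above 1.5-fold are therefore outside the interval for most subunits, taken gene by gene.

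Summed over genes, the groups overlapped. The nuclear-encoded subunits summed to 23100.3, 23754, 24322, 23860 and 24261 CPM in oxaliplatin libraries 1 to 5. In vehicle libraries 1 to 5 they summed to 24177, 22870, 27894, 25269 and 26686 CPM. The lowest sum of all was that of vehicle 2 and the highest that of vehicle 3, and the oxaliplatin libraries lay close together between them. The means were 23859 ± 491 CPM (SD, n = 5) after oxaliplatin and 25379 ± 1987 CPM (SD, n = 5) after vehicle. The spread within the vehicle group was shared by most genes: vehicle 3 was the highest of its group in 59 of the 78 nuclear subunits, and vehicle 2 the lowest in 67. Within the oxaliplatin group, oxaliplatin 3 was the highest in 44 of the 78 and oxaliplatin 1 the lowest in 41. Without vehicle 3 the median log2 fold change of the nuclear subunits was -0.05 and 62 of 83 were below 0. Without vehicle 2 it was -0.13.

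The mitochondrial-encoded subunits followed the same libraries. They summed to 10770.2, 11326, 12313, 10898 and 10534 CPM in oxaliplatin 1 to 5 and to 11793, 11075, 14531, 12673 and 12192 CPM in vehicle 1 to 5. Vehicle 3 was again highest, and oxaliplatin 3 was the highest of its group. Vehicle 1, 2 and 5 lay within the oxaliplatin range. Without vehicle 3 their median log2 fold change was -0.05. Per 100 counts of nuclear subunits there were 46.8 ± 2.65 mitochondrial counts (SD, n = 5) after oxaliplatin, from 43.4 to 50.6, and 49.0 ± 2.36 after vehicle, from 45.7 to 52.1. The balance of the 2 genomes thus overlapped between the groups.

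**Figure D2:**
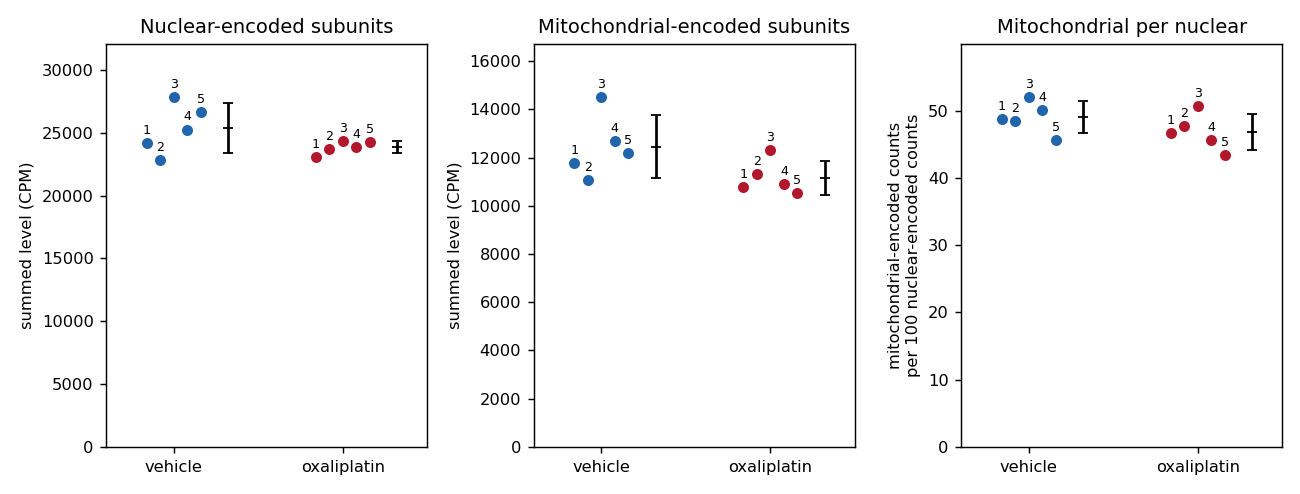
Each point is 1 library, numbered as in the labels, with the mean ± SD of 5 libraries in black; the panels show the summed level of nuclear-encoded and of mitochondrial-encoded subunits (CPM) and mitochondrial counts per 100 nuclear counts. Vehicle 3 is highest in all 3 panels, and the groups overlap in each.

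Complex I takes electrons from NADH. Its 36 nuclear members had a median log2 fold change of -0.08 with 34 below 0, and its 7 mitochondrial members a median of -0.08 with 5 below 0. Of the nuclear members 0 passed the edgeR test, and DESeq2 and voom called 0. At an unadjusted p below 0.05, 4 of the 36 were lower, beside 7.80% of all tested genes. The 7 core subunits with redox centres or their neighbours had a median of -0.03 and the 29 accessory subunits, which surround and stabilise the core, a median of -0.09. Among the core subunits, Ndufs1, which carries iron-sulfur clusters, had a log2 fold change of -0.02 ± 0.06 (SE, adjusted p = 0.924). Ndufv1, the NADH-binding subunit, was the highest nuclear member of complex I. Its levels were 504, 438, 418, 491 and 492 CPM after oxaliplatin and 452, 422, 463, 392 and 418 CPM after vehicle, and the groups overlapped (0.13 ± 0.06, adjusted p = 0.351). The 2 members of smallest p were accessory subunits of the membrane arm, Ndufb3 (-0.21 ± 0.07, adjusted p = 0.156) and Ndufa1 (-0.20 ± 0.08, adjusted p = 0.207). Ndufb3 stood at 126, 129.7, 139, 137 and 131 CPM after oxaliplatin and at 135, 140.0, 181, 150.5 and 159 CPM after vehicle. Of the 7 mitochondrial genes, mt-Nd4 had the lowest value, -0.16 ± 0.07 (adjusted p = 0.258).

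Complex II, succinate dehydrogenase, has no mitochondrial-encoded subunit and had the median nearest to 0 among the complexes. Its 4 members had a median of -0.04 with 3 below 0, and 0 passed the test or had an unadjusted p below 0.05 (DESeq2 and voom also called 0). Sdha, the subunit that oxidises succinate, stood at 616, 545, 613, 567 and 565 CPM after oxaliplatin and 559, 582, 599, 541 and 480.3 CPM after vehicle (0.07 ± 0.06, adjusted p = 0.617). Sdhb, the iron-sulfur subunit, had a log2 fold change of -0.04 ± 0.06 (adjusted p = 0.809) and Sdhd, a membrane anchor, of -0.07 ± 0.06 (adjusted p = 0.653). Whether the complexes differ from each other was not tested.

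Complex III passes electrons from ubiquinol to cytochrome c. All 9 nuclear members were below 0, with a median of -0.10, and 0 passed the edgeR test or were called by DESeq2 or voom. At an unadjusted p below 0.05, 3 of the 9 were lower, beside 7.80% of all tested genes. Uqcr11, a small accessory subunit, had the smallest p (-0.22 ± 0.07, adjusted p = 0.122), with 264, 277, 286, 272 and 287 CPM after oxaliplatin and 308, 271, 358, 322 and 353 CPM after vehicle. Cyc1, cytochrome c1, had a log2 fold change of -0.13 ± 0.07 (adjusted p = 0.394). Uqcrc1, a core-fold subunit whose promoter is printed above, had one of -0.02 ± 0.05 (adjusted p = 0.856). The mitochondrial member, mt-Cytb for cytochrome b, stood at 3275, 3505, 3887, 3265 and 3302 CPM after oxaliplatin and 3835, 3504, 4596, 4076 and 4051 CPM after vehicle. Vehicle 1 and 2 lay within the oxaliplatin range, and oxaliplatin 2 and 3 within the vehicle range. The log2 fold change was -0.22 ± 0.07 (SE), and the adjusted p was 0.121, between 0.0350 and 0.302 over the alternatives. It was called lower in 3 of 23 alternatives, voom and the fit without vehicle 2 among them.

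Uqcrfs1, the Rieske iron-sulfur protein of complex III, stood apart from all other members in its pattern across libraries. It had 109, 118, 28.4, 114 and 129.6 CPM in oxaliplatin 1 to 5 and 123, 120.3, 34.5, 108 and 131 CPM in vehicle 1 to 5. The library numbered 3 in each group was thus at most 34.5 CPM, and the other 8 were at least 108 CPM. The log2 fold change between groups was -0.05 ± 0.47 (SE, adjusted p = 0.975), and with both of these libraries left out it was -0.03 (adjusted p = 0.903). Both libraries numbered 3 lay more than 2-fold below all other 8 in 35 of 18401 tested genes and more than 2-fold above in 0. For the other 24 pairings of 1 oxaliplatin with 1 vehicle library these counts were 1 to 10 below and 0 to 7 above. Uqcrfs1 was the only member among the 35, and the labels give no batch, litter or animal that joins the 2 libraries.

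Cycs, the somatic cytochrome c that carries electrons to complex IV, had 151, 165, 175, 171 and 162 CPM after oxaliplatin and 178, 168, 207, 204 and 198 CPM after vehicle. Only vehicle 2 lay within the oxaliplatin range. The log2 fold change was -0.21 ± 0.07 (SE, adjusted p = 0.113).

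Complex IV, cytochrome c oxidase, reduces oxygen. Its 12 widely expressed accessory subunits were all below 0, with a median of -0.12, and 0 passed the test or were called by DESeq2 or voom. At an unadjusted p below 0.05, 4 of the 12 were lower, beside 7.80% of all tested genes. Cox6a1, at 913 ± 28.2 CPM after oxaliplatin and 940.2 ± 85.8 CPM after vehicle (SD, n = 5 each), had a log2 fold change of -0.04 ± 0.06 (adjusted p = 0.797), and Cox4i1 one of -0.03 ± 0.06 (adjusted p = 0.871). The catalytic subunits are mitochondrial. The log2 fold change was -0.17 ± 0.08 for mt-Co1, which holds the site of oxygen reduction (adjusted p = 0.333), -0.13 ± 0.08 for mt-Co2 (adjusted p = 0.488) and -0.15 ± 0.07 for mt-Co3 (adjusted p = 0.338).

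The isoforms of complex IV that mark particular tissues varied most. Cox6b2, the testis form of Cox6b, had 5.77, 5.73, 8.48, 5.14 and 6.69 CPM after oxaliplatin and 4.12, 3.14, 5.13, 3.32 and 4.38 CPM after vehicle. It was the only member whose groups did not overlap, where 2.25% of all tested genes were separated upward and 1.77% downward. The groups all but touched, with 5.137 CPM in oxaliplatin 4 and 5.132 CPM in vehicle 3. Cox6b2 had a log2 fold change of 0.66 ± 0.17 (SE), or 1.58-fold, and missed the threshold at an adjusted p of 0.0523. DESeq2 (adjusted p = 0.00725) and voom (adjusted p = 0.0262) called it higher, and over all alternatives the adjusted p ranged from 0.00725 to 0.149. Its widespread counterpart Cox6b1 was at 403 ± 18.8 and 449.7 ± 50.3 CPM (SD, n = 5 each), with a log2 fold change of -0.16 ± 0.07 (adjusted p = 0.275).

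Cox7a1, a form of heart and skeletal muscle, went the other way. It had 5.59, 3.98, 4.60, 3.41 and 3.79 CPM after oxaliplatin and 5.57, 5.13, 6.94, 6.94 and 6.56 CPM after vehicle, so that only oxaliplatin 1 reached the vehicle range. The log2 fold change was -0.54 ± 0.15 (adjusted p = 0.0787), and DESeq2 (adjusted p = 0.0153), voom (adjusted p = 0.0398) and the fit without oxaliplatin 1 (adjusted p = 0.0451) called it lower. Its counterpart Cox7a2 had a log2 fold change of -0.11 ± 0.07 (adjusted p = 0.432). The muscle forms Cox6a2 and Cox8b were set by 1 library. Cox6a2 had 13.5 CPM in oxaliplatin 1, 0.427 to 1.64 CPM in the other 4 and 2.03 to 4.47 CPM after vehicle. Cox8b had 5.99 CPM in oxaliplatin 1, 0.205 to 0.616 CPM in the other 4 and 0.429 to 2.89 CPM after vehicle. Their log2 fold changes were 0.04 ± 0.92 (adjusted p = 0.991) and -0.20 ± 0.99 (adjusted p = 0.955), and without oxaliplatin 1 they were -1.70 (adjusted p = 0.0692) and -2.05 (adjusted p = 0.0795). Cox8b was called lower with both oxaliplatin 1 and vehicle 5 left out (-2.30, adjusted p = 0.00818).

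The summed level of 17 skeletal muscle markers was also highest in oxaliplatin 1. It was 1001 CPM in oxaliplatin 1, 24.8, 32.5, 50.1 and 38.9 CPM in oxaliplatin 2 to 5, and 704, 437, 230.2, 695 and 142 CPM in vehicle 1 to 5. Of 16 tested muscle markers 0 passed the test (0 at an unadjusted p below 0.05, and 0 in DESeq2 or voom), and 1 of the 17, Tnnc2, was at 0 in some library. The adipocyte markers also peaked in oxaliplatin 1, at 1264 CPM, beside 42.6 to 106 CPM in the other 4 and 38.2 to 97.2 CPM after vehicle. Of 10 tested adipocyte markers 1 was below 0. By edgeR 1, Plin4, rose (3.38 ± 0.64, adjusted p = 0.0382), beside 1.27% of all tested genes. DESeq2 called 1 adipocyte marker higher and voom 0. The part of these markers in the levels of the muscle forms was not tested. Cox7b2, another testis form, lay under 1 CPM in all 10 libraries (-0.77 ± 0.50, adjusted p = 0.479), beside Cox7b at 197 ± 13.3 and 221 ± 19.6 CPM (-0.17 ± 0.07, adjusted p = 0.238).

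Cox4i2, the form of Cox4 found in lung and in pericytes, had 7.38, 4.60, 7.08, 8.11 and 7.68 CPM after oxaliplatin and 1.95, 3.01, 3.67, 3.13 and 3.0 CPM after vehicle, with no overlap. It rose by 1.24 ± 0.18 on the log2 scale (SE, adjusted p = 0.00403) and was called in all 23 alternatives, with an adjusted p of 0.0197 at most. The pericyte and smooth muscle markers summed to 169 to 242 CPM after oxaliplatin and 143 to 171 CPM after vehicle, and 2 of the 8, Abcc9 and Kcnj8, rose. Endothelial markers summed to 62.8 to 72.8 CPM and 43.6 to 63.0 CPM. Of these 6 markers 2, Pecam1 and Cdh5, rose, beside 1.27% of all tested genes. The part of these cells in the level of Cox4i2 was not tested. Ndufa4l2, a paralogue of the complex IV subunit Ndufa4, had a log2 fold change of 0.29 ± 0.16 (adjusted p = 0.394).

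**Figure D3:**
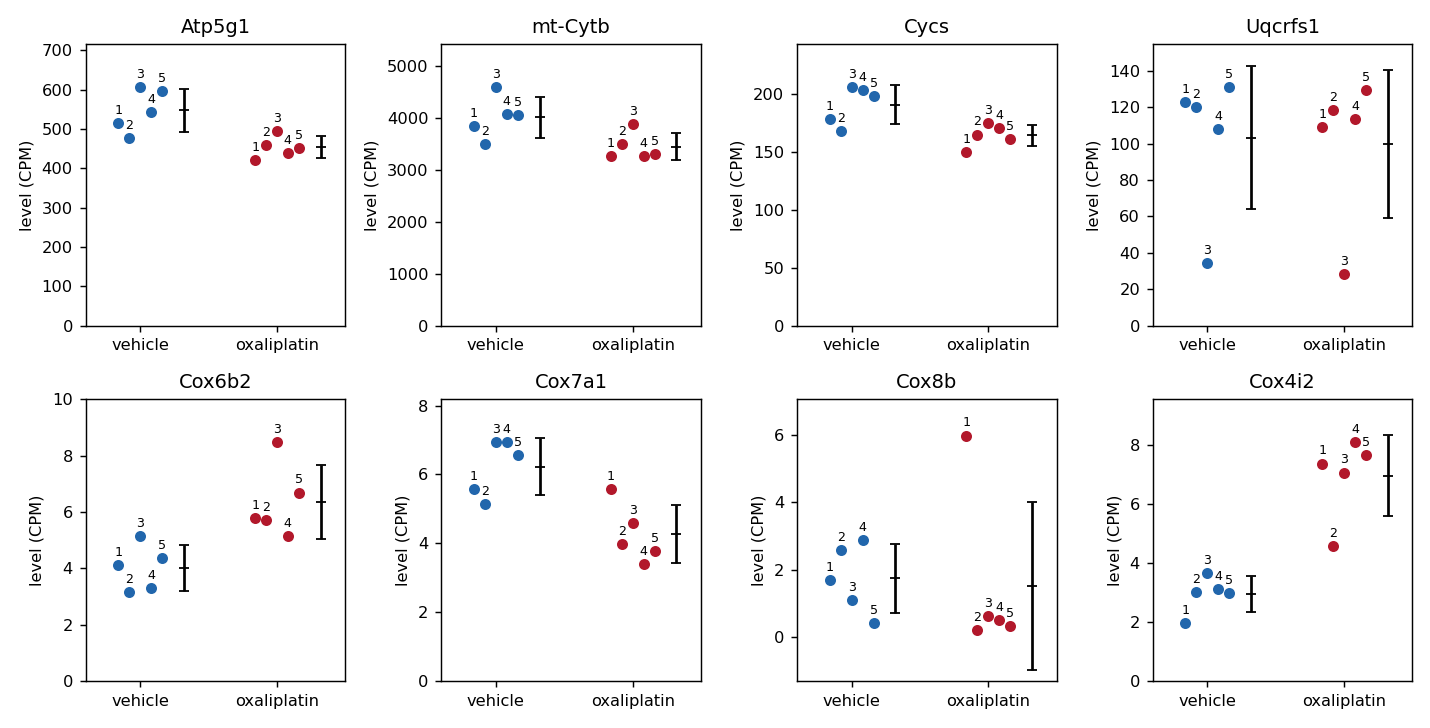
Level of 8 genes (CPM, each panel on its own axis) in each library, numbered as in the labels, with the mean ± SD of 5 libraries in black. Uqcrfs1 is low in the library numbered 3 of each group. Cox4i2 is separated between groups, while the groups of Cox6b2 all but touch. Cox8b is highest in oxaliplatin 1.

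Complex V, ATP synthase, held the called member. Its 16 nuclear members had a median log2 fold change of -0.11 with 15 below 0. At an unadjusted p below 0.05, 5 of the 16 were lower, beside 7.80% of all tested genes. DESeq2 called 1 lower and voom 2, beside 406 and 365 of all 18401 tested genes. Atp5g1 codes for subunit c, which forms the rotating ring in the membrane, and the same mature protein is also made from Atp5g2 and Atp5g3. Atp5g1 stood at 420.4, 460.0, 495, 439.6 and 453 CPM after oxaliplatin and at 514, 478, 607, 545 and 596 CPM after vehicle. Only vehicle 2 lay within the oxaliplatin range, and oxaliplatin 3 was the one library of its group within the vehicle range. Atp5g1 fell by 0.27 ± 0.07 on the log2 scale (SE), or 1.21-fold, with an edgeR adjusted p of 0.0493. The adjusted p ranged from 0.0130 to 0.191 over the alternatives, and the call held in 2 of 10 fits that left out 1 library. Atp5g2 and Atp5g3 had log2 fold changes of -0.08 ± 0.07 (adjusted p = 0.630) and -0.08 ± 0.07 (adjusted p = 0.621).

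The catalytic subunits of complex V differed little. Atp5a1 had 1268 ± 34.5 CPM after oxaliplatin and 1263 ± 62.9 CPM after vehicle (SD, n = 5 each), with a log2 fold change of 0.01 ± 0.05 and a 95% interval from -0.10 to 0.11. Atp5b had one of -0.10 ± 0.06 (adjusted p = 0.445). Atp5d and Atp5e are subunits of the central stalk. Atp5d had a difference as large as that of Atp5g1, with a wider spread, and stood at 412, 513, 389, 412 and 463 CPM after oxaliplatin and 522, 488, 492, 521 and 628 CPM after vehicle (-0.28 ± 0.08, adjusted p = 0.101); oxaliplatin 2 lay within the vehicle range. Atp5e had a log2 fold change of -0.26 ± 0.08 (adjusted p = 0.126). The mitochondrial members mt-Atp6 and mt-Atp8 had values of -0.14 ± 0.11 (adjusted p = 0.606) and 0.06 ± 0.26 (adjusted p = 0.948), the latter at about 1 CPM.

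**Figure D4:**
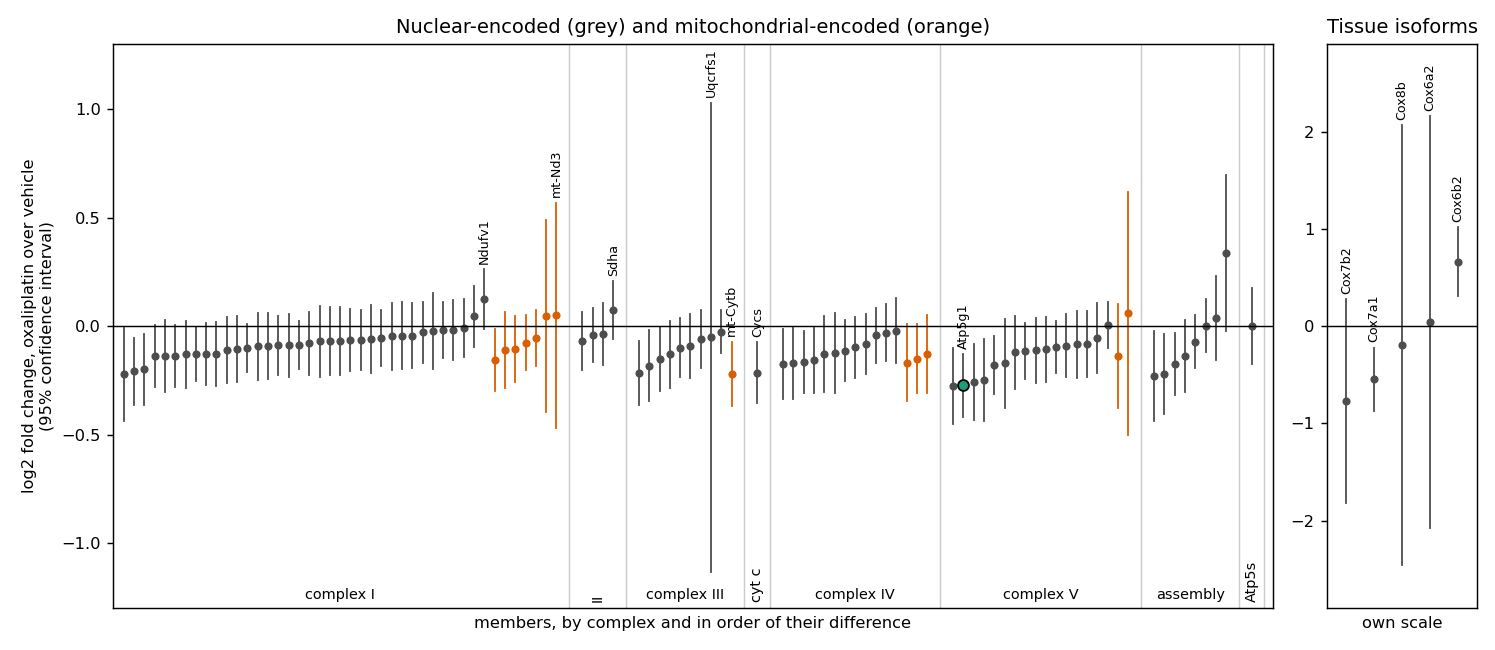
Log2 fold change of oxaliplatin over vehicle (vertical axis) with its 95% confidence interval for each tested member, grouped by complex and ordered by value, nuclear-encoded in grey and mitochondrial-encoded in orange; the 5 tested tissue isoforms of complex IV have a panel with a wider axis. Atp5g1 (large green point, -0.27) is the member that passed the test, and most other points lie just below 0.

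The complex I assembly factors caught by the rule and Atp5s had a median log2 fold change of -0.07, with 5 of 9 below 0. Of these 0 passed the edgeR test, and DESeq2 and voom called 0. At an unadjusted p below 0.05, 3 of the 9 were lower, beside 7.80% of all tested genes. Ndufaf1, an early assembly factor, had a log2 fold change of -0.18 ± 0.07 (adjusted p = 0.20) and Ndufaf4 one of -0.22 ± 0.09 (adjusted p = 0.209). Assembly factors outside the rule are described with the pathway lists.

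Levels between genes were compared per kilobase of exon sequence in GENCODE M21, in the vehicle libraries. The highest were mt-Cytb at 3507, mt-Co1 at 2570.4 and mt-Nd1 at 1897 CPM per kilobase, followed by Cox6a1 at 1339 CPM per kilobase. At the other end the mitochondrial genes mt-Nd3, mt-Nd4l and mt-Atp8 had mean levels of 2.08, 1.47 and 0.806 CPM before scaling by length. As background, mitochondrial protein genes are transcribed as parts of long shared transcripts.

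Several mitochondrial members share nearly all their sequence with a nuclear copy that has its own row in the table. Aligning GENCODE M21 transcripts (at least 95% identity over at least 150 bases and over 50% of the shorter transcript) gave a copy for 9 of 13 mitochondrial and 25 of the 93 nuclear members. For mt-Nd3 the copy Gm28438, on chromosome 1, matched 345 aligned bases with 1 difference, T3C (the mt-Nd3 base first, positions counted from 1 at the 5′ end of the gene). The first 90 bases of both are shown because reads from either cannot be told apart over most of their length, and the capital marks the base that differs.
mt-Nd3: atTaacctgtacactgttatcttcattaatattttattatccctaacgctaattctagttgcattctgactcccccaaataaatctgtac
Gm28438: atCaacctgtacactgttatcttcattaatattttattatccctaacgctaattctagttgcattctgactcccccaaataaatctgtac

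Over the 10 libraries mt-Nd3 had 1208 counts and Gm28438 had 87307. For mt-Co2 the counts were 26692, beside 34062 for Gm28661, identical over 681 bases, and 16633 for Gm13341. The same stretch of mt-Co2 and of Gm28661 shows the identity.
mt-Co2: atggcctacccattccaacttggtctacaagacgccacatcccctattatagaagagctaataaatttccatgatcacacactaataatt
Gm28661: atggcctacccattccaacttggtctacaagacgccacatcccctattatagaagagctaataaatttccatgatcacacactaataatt

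The copies took a similar share for mt-Atp6 (30597 counts, and 33736 for Gm10925), mt-Co3 (57343, and 59490 for Gm28437) and mt-Nd4l (850, and 1203 for Gm10222). They took little for mt-Nd4 (457650, and 5465 for Gm28439) and mt-Co1 (2141888, and 42644 for Gm29216 and 38045 for Gm13340). No label states how reads that match both places were counted, so the level of the members with large copies is uncertain. Within the comparison, adding the copies moved mt-Nd3 from 0.05 ± 0.25 to -0.14 ± 0.09 (adjusted p = 0.463 with the copy), nearer to the other mitochondrial genes. Gm28438 alone had 127, 132, 168, 158 and 140.3 CPM after oxaliplatin and 140.3, 140.0, 163, 177 and 183 CPM after vehicle. The genes mt-Atp8 and mt-Nd4l also overlap mt-Atp6 and mt-Nd4 on the mitochondrial genome, so reads in the shared bases cannot be told apart either. With all copies added, the median of the 13 mitochondrial members was -0.12.

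**Figure D5:**
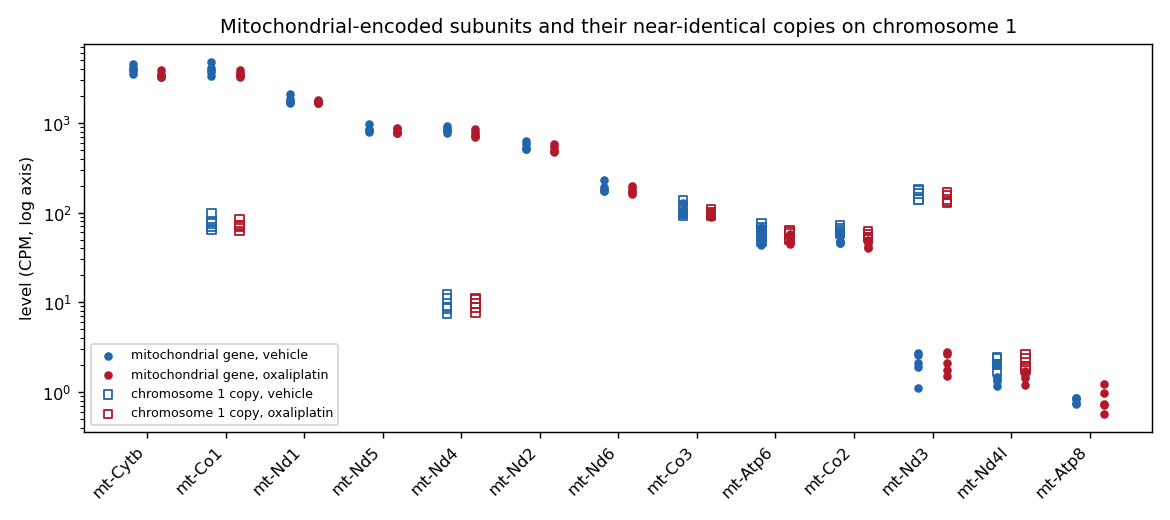
Level (CPM, log axis) of the 13 mitochondrial-encoded subunits (filled circles) and of their near-identical copies on chromosome 1 (open squares) in each library, vehicle in blue and oxaliplatin in red. For mt-Nd3 the copy lies far above the gene, for mt-Co2, mt-Co3, mt-Atp6 and mt-Nd4l they lie close together, and for mt-Co1 and mt-Nd4 the gene lies far above the copy.

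Among the nuclear members, copies summed to over 5% of the member's counts in 8. The largest single share was that of Gm10039, a copy of Atp5g1 with 99.8% identity and 13.9% of its counts. Gm10039 had a log2 fold change of -0.30 ± 0.09 (adjusted p = 0.0870), and Atp5g1 with its copies had one of -0.28 ± 0.07 (adjusted p = 0.0499). For Cycs the copy Gm10053 had 6.17% of the counts, and with its copies Cycs had a log2 fold change of -0.22 ± 0.07 (adjusted p = 0.101).

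Lists of genes around the chain had medians from -0.12 to -0.04. Over all 18401 tested genes edgeR called 1.27% higher and 0.772% lower. DESeq2 called 516 of them higher and 406 lower, and voom 439 and 365. At an unadjusted p below 0.05, 8.51% of all tested genes were higher and 7.80% lower. Among 45 tested assembly factors of the complexes outside the naming rule the median was -0.10, with 0 higher and 2 lower by edgeR, 0 and 5 by DESeq2, 1 and 4 by voom, and 2 and 10 at an unadjusted p below 0.05. Of the edgeR calls, Bcs1l, which inserts the Rieske protein into complex III, fell by 0.33 ± 0.08 (adjusted p = 0.0440) and Sdhaf2, which helps add the flavin to Sdha, fell by 0.26 ± 0.06 (adjusted p = 0.0498). Bcs1l stood at 21.2, 23.2, 25.9, 21.9 and 20.9 CPM after oxaliplatin and 26.8, 27.4, 29.8, 29.8 and 28.3 CPM after vehicle, with no overlap. Both calls were close to the threshold and held in 2 and in 1 of 10 fits that left out 1 library, with an adjusted p of up to 0.131 and 0.139. Factors that express the mitochondrial genome (29 tested, median -0.06), regulators of mitochondrial biogenesis (17, 9 of them below 0, median -0.04), citric acid cycle genes (18, median -0.06) and mitochondrial carriers and porins (14, median -0.12) each had 0 calls by edgeR in either direction. At an unadjusted p below 0.05 these 4 lists had 1, 1, 0 and 0 genes higher and 2, 0, 5 and 3 lower; DESeq2 called 0 in each, and voom called 0, 0, 2 and 1 lower and 0 higher. The genes of smallest p were Tbrg4 (-0.17 ± 0.06, adjusted p = 0.184), Ppara (0.56 ± 0.25, adjusted p = 0.284), Idh3a (-0.18 ± 0.06, adjusted p = 0.127) and the ADP/ATP carrier Slc25a5 (-0.21 ± 0.06, adjusted p = 0.116).

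Ribosomal protein genes and other short transcripts also lay mostly below 0. Over all tested genes edgeR called 0.772% lower. Of 76 tested mitochondrial ribosomal protein genes, 67 were below 0, with a median of -0.09 and 1 call, Mrpl36 (-0.27 ± 0.06, adjusted p = 0.0400, up to 0.156 over the alternatives and called in 2 of 10 fits that left out 1 library). Of 77 tested cytosolic ribosomal protein genes, 66 were below 0, with a median of -0.06 and 1 call, Rpl22l1 (-0.53 ± 0.09, adjusted p = 0.0113, called in all 23 alternatives). Protein-coding genes outside the members had a median of -0.10 where their exons were under 1000 bases (338 genes), -0.06 from 1000 to 2000, -0.01 from 2000 to 4000 and 0.02 above (8396 genes). The nuclear members had medians of -0.12, -0.09, -0.08 and -0.10 in the same classes (22, 35, 24 and 11 genes). In the shortest class, members and other genes thus had nearly the same median, while 90.9% of the members and 66.3% of the other genes lay below 0. In the longer classes the members lay lower, and whether this difference exceeds the spread between libraries was not tested. By level, other protein-coding genes with a mean of 100 to 1000 CPM had a median of -0.04, with 65.3% of 1729 below 0.

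Lists of markers for cell types and of RNAs kept in the nucleus were measured in the same libraries. Over all tested genes 1.27% rose and 0.772% fell past the edgeR test. In the neuron list 4 of 17 genes fell, the neurofilament genes Nefh, Nefl and Nefm and the ATP receptor P2rx3, and 0 rose. The only overlap in its summed level was oxaliplatin 2, at 31180 CPM, above vehicle 2, at 31157 CPM. Vehicle 3, the library with the highest respiratory chain sums, also had the highest neuron sum, 35924 CPM. Of 8 satellite glia markers Glul rose and Fabp7 fell, with sums of 427 to 546 CPM and 556 to 698 CPM. Schwann cell markers summed to 10409 to 13507 CPM after oxaliplatin and 9609 to 12681 CPM after vehicle, and 1 of 12, Cnp, rose. RNAs known to stay in the nucleus summed to 8950.5 to 11442 CPM and 7873 to 8816 CPM, and 2 of 9, Meg3 and Neat1, rose. None of the neuron, Schwann cell or nuclear RNA markers was at 0 in any library. The part of neuron content, glia or nuclear RNA in the lean of the respiratory chain genes was not tested.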

How the data were processed

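Total RNA of DRG was sequenced from SMARTer libraries, per the labels' protocols, which do not state whether strand was kept. The authors deposited raw read counts per Ensembl gene; the submitters' processing notes list STAR 2.5.1a, DESeq2 and Partek without their roles. Build, annotation and counting step: not given in the sources used here. From the table, 276 repeated rows were dropped, among them 2 of Ndufb4, and 26 date-like symbols were replaced by ID.

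Groups came from the labels. Genes kept by filterByExpr were tested with edgeR 4.0.16 (R 4.3.3; TMM factors, robust quasi-likelihood fit, no covariates), with Benjamini-Hochberg adjustment over all tested genes and a threshold of 0.05. SE is the log2 fold change over the root of F, and intervals are 95%. The code was tested on simulated data. Replicates of a group differed beyond sampling noise (chi-square at least 12.0 per degree of freedom), so none was merged. Copies were found with blastn 2.17.0. Alternatives used DESeq2 1.42.0, limma 3.58.1, sva 3.50.0, other scalings and filters, and fewer libraries.

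The members and gene lists were chosen with earlier results of these data known. Genes named are all mitochondrial members, called members, the 2 of smallest p and the highest in each complex, core catalytic subunits, isoform pairs, Cox4i2, Ndufa4l2, and per pathway list the called genes or the 1 of smallest p. Atp5e, Atp5g2, Atp5g3, Uqcrc1, Ndufaf members beyond these and the copies were named after their values were seen. The values of 1 gene that the rule names are not reported here.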

Additional observations from a re-analysis of the deposited data

Results flagged for a closer look

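Dixon's test was run in 118 groups of 5 libraries. It covered 56 genes, the summed nuclear and mitochondrial subunit levels and the mitochondrial share of counts, each in 2 groups. In 7 of the 118 a library lay far from the other 4, where chance gives about 1 in 20, or 5.9. Uqcrfs1 was flagged in both groups, at 28.4 CPM in oxaliplatin 3 beside 109 to 129.6 CPM in the others, and at 34.5 CPM in vehicle 3 beside 108 to 131 CPM. Vehicle 3 was also far above its group for mt-Co2, at 58.7 CPM beside 45.2 to 48.2 CPM, and for Atp5a1, at 1372 CPM beside 1217 to 1256 CPM. Atp5d was at 628 CPM in vehicle 5 beside 488 to 522 CPM. Ndufs1 was at 189.0 CPM in oxaliplatin 3 beside 161 to 167 CPM. Cox4i2, outside the naming rule, was at 4.60 CPM in oxaliplatin 2 beside 7.08 to 8.11 CPM.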

How the results depend on the processing

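With edgeR 0 members were higher and 1 lower. The counts were 1 and 0 without a composition factor, with a filter of 1 CPM in 5 libraries and with 1 surrogate variable; 0 and 0 with library sizes from nuclear genes only and with both libraries numbered 3 left out; 1 and 1 with no filter; 1 and 2 with DESeq2 and with a threshold of 0.1; and 1 and 4 with voom. Leaving out 1 library at a time gave 0 to 1 higher and 0 to 4 lower. The call of Atp5g1 held without oxaliplatin 3 or vehicle 2 and was lost in the other 8 such fits. No member was lower without oxaliplatin 4 or 5 or vehicle 1, 3, 4 or 5, and 4 were lower without vehicle 2. The cause was not tested. The replicate number as a block gave 1 higher and 6 lower. Apart from the main fit, DESeq2 and voom, the counts in this paragraph lack the share called over all genes in the same fit. They therefore do not show whether the members differ from genes in general. Same-numbered libraries correlated at -0.04 to 0.21, and 3 of 5 correlated best with their own number. The libraries numbered 3 also shared the 35 low genes described above. The labels name no pairing, so the main fit used none. Whether the numbers join libraries cannot be told from the labels.

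Both medians stayed below 0 in every alternative run. That of the nuclear subunits ranged from -0.13 without vehicle 2 to -0.05 without vehicle 3, and was -0.06 without a composition factor, a scaling that moved the median of all genes to 0.04, and -0.06 with both libraries numbered 3 left out. That of the mitochondrial subunits ranged from -0.15 without oxaliplatin 3 to -0.05 without vehicle 3, and was -0.06 with both libraries numbered 3 left out. Among 50 named genes that were not called, 12 changed sign in some alternative and 9 were called in some. Summing copies and leaving out both libraries numbered 3 were chosen after seeing the data. Depth limits mt-Nd3, mt-Nd4l, mt-Atp8 and the tissue isoforms.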
